A study of Mus musculus with 3 samples.

Results

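The interferon-response cells described here are cluster 10 (C10) of the CD4+ T cells in the authors' deposited annotation, carried under the name Isg15hi and marked by Isg15 and Ifit3. Every cell that the deposited table of CD4 cells assigned to C10 was taken, and T cell receptor transgenic TEa cells were left out. This gave 202 C10 cells of 10091 CD4 cells, in a series of 21204 T cells in all. A further 6 of 280 TEa cells lay in C10 and were not used.

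The cells came from B6D2F1 mice that had been irradiated and given B6 bone marrow together with B6 T cells and a small number of TEa T cells, a setting in which donor T cells respond to the alloantigens of the recipient and cause graft-versus-host disease. TEa cells are CD4+ T cells on a Rag1-/- background whose receptor recognises an alloantigen peptide. Recipients were treated daily from day 0 to day 6 with saline, with cyclosporine (CSA) at 5 mg/kg or with CSA at 50 mg/kg, and the spleens were taken on day 7. Each group held 6 mice in 3 pools of 2 mice. The pools of a group were labelled with hashtag antibodies, sorted as CD4+ and CD8+ T cells and captured as droplets together, for sequencing of mRNA and T cell receptors (TCR).

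All groups therefore shared the strain combination, the irradiation, the graft and the sort, and differed in what was injected. CSA binds cyclophilin and blocks calcineurin, the phosphatase that lets NFAT transcription factors enter the nucleus after TCR stimulation. Each group was 1 capture, so the capture and the treatment cannot be told apart, and the p-values across treatments measure the spread between pools of mice within captures.

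Interferons bind receptors on almost every cell and activate the Jak kinases, which phosphorylate Stat proteins. With Irf9, the phosphorylated Stat proteins form a complex that binds interferon-stimulated response elements in the promoters of interferon-stimulated genes. The products of these genes block viral replication, sense foreign nucleic acid, attach the ubiquitin-like protein Isg15 to other proteins and raise antigen presentation, and in T cells the pathway is also known to shape survival and effector differentiation.

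Promoter sequences of 6 leading C10 genes are shown because the response element is the shared DNA feature by which interferon-stimulated genes are known. Each line gives the 200 bases before the annotated gene start, read in the direction of the gene, from RefSeq on the mouse build GRCm38.p6. Capitals mark matches to the core of the response element, which was searched as GAAA, any 2 bases and GAAA, or on the opposite strand as TTTC, any 2 bases and TTTC. The windows were chr4:156200819-156201018 on the minus strand for Isg15, chr19:34583329-34583528 on the plus strand for Ifit3, chr19:34607757-34607956 on the plus strand for Ifit3b, chr12:26456453-26456652 on the minus strand for Rsad2, chr19:34640689-34640888 on the plus strand for Ifit1 and chr5:114896734-114896933 on the plus strand for Oasl2.
Isg15: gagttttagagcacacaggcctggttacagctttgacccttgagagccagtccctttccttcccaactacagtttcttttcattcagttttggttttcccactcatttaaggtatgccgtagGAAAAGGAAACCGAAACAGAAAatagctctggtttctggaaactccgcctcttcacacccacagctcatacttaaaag
Ifit3: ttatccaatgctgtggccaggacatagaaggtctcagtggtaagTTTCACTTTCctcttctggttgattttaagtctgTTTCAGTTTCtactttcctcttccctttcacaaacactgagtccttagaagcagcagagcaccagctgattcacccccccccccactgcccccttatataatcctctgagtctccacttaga
Ifit3b: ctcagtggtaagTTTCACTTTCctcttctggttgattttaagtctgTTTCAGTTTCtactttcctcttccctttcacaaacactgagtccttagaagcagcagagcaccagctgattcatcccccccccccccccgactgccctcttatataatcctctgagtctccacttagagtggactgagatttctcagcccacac
Rsad2: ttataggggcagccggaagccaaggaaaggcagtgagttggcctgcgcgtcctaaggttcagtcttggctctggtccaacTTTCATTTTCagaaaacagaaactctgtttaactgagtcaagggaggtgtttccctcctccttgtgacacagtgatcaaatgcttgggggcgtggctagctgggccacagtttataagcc
Ifit1: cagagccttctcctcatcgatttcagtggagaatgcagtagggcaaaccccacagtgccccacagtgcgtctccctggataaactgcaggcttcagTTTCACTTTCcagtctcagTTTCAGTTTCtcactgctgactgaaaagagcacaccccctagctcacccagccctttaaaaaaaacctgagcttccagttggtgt
Oasl2: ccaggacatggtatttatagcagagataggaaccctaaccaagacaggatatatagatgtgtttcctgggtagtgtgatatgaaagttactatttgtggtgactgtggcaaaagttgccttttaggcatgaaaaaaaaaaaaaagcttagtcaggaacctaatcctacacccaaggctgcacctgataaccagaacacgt

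Isg15 held 3 overlapping matches, which began 78, 72 and 66 bases before the gene start. Ifit3 and Ifit3b held 2 matches each on the opposite strand, inside an identical stretch of 119 bases. These are near-identical neighbouring genes, so the split of reads between them is uncertain. Rsad2 held 1 match at 120 bases before the start, Ifit1 held 2 matches at 104 and 85 bases, and Oasl2 held none in the window shown. Over windows from 250 bases before to 50 bases after the start, 9 of the 11 leading C10 genes that had a promoter entry held a match (81.8%), against 1079 of 27025 promoters in all (3.99%). Of the 60 genes highest in C10 over other CD4 cells, 48 had an entry and 27 of these held a match (56.3%), while none of 11 promoters of a list of cell cycle genes did. A match describes the letters of the window and is not evidence of binding.

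C10 cells were T cells by their transcripts. Cd3e, a chain of the TCR complex, averaged 1087 ± 128 (SD, n = 9 pools) CPM, the unique molecular identifier (UMI) counts of a gene scaled to 1000000 per pool, in C10 and 1024 CPM in the other CD4 cells of the same pools. Cd4 averaged 542 ± 201 CPM in C10 and 512.3 CPM in the others, and the CD4 antibody tag had a mean of 371 UMIs per cell over the pools' medians. Cd8a had 0 UMIs in C10 and 0 in the other CD4 cells, whereas 79 UMIs of Cd8b1 were present in C10. Since Cd8a was at 0 throughout the CD4 cells, its absence is not used as evidence of what C10 cells are.

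The defining markers of other cell types were at or near 0 in C10. Of B cell genes, Ms4a1 had 0 UMIs and Cd79a 3, of myeloid genes, Adgre1, Csf1r and Itgam had 1 UMI each and Lyz2 3, and of plasmacytoid dendritic cell genes, Siglech and Ly6d had 0. Summed over each list, B cell genes took 0.00804 to 0.0348% of C10 UMIs per pool, myeloid genes 0.0148 to 0.0509%, plasmacytoid dendritic cell genes 0.00120 to 0.0110% and NK cell genes up to 0.00536%. The B cell sum was mostly Ighm, with 210 UMIs, and the myeloid sum mostly Cst3, S100a8 and S100a9. Cells with 2 strong hashtags, a sign of 2 cells in 1 droplet, made up 8 of 202 C10 cells (3.96%) and 406 of 9889 other CD4 cells (4.11%).

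The depth of C10 was limited. Pools held 14 to 29 C10 cells and 37301 to 149412 C10 UMIs (median 84537), against 3957667 to 7509031 UMIs of other CD4 cells. C10 cells had fewer UMIs per cell than the other CD4 cells in 8 of 9 pools, with group means of 2826, 4326 and 4535 UMIs at saline, 5 and 50 mg/kg CSA, against 3095, 4392 and 6004. Mitochondrial transcripts made up 1.66% of C10 UMIs and 1.67% of those of other CD4 cells, as means of the pools' medians. Of 20986 distinct cell barcodes in the series, 218 were present in more than 1 capture, none of them in C10.

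The next question was which genes set C10 apart from the other CD4 cells of the same pools. Because clusters were made from these same counts, the comparison is a description and carries no test. Among 3555 genes with at least 50 CPM in either population, 208 were higher and 192 lower in C10 in all 9 pools, and the pools of C10 and of other CD4 cells did not overlap for 101 genes higher in C10 (2.84%) and 113 genes lower (3.18%).

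Isg15, the ubiquitin-like modifier that gave the cluster its name, measured 1206, 963 and 1136 CPM in the saline pools of C10, 1708, 2077 and 1954 CPM at 5 mg/kg and 1723, 1222 and 1993 CPM at 50 mg/kg. In the other CD4 cells Isg15 ranged from 60.99 to 129 CPM, so that every C10 pool lay above every pool of other cells, and the median log2 ratio was 3.92. Ifit3, an antiviral protein of the tetratricopeptide repeat family, measured 643, 543 and 662 CPM in saline, 528, 752 and 562 CPM at 5 mg/kg and 396, 236 and 576 CPM at 50 mg/kg. Its highest pool of other CD4 cells reached 14.5 CPM, and the median log2 ratio was 5.65. Both markers given for the cluster thus stood clear of the remaining CD4 cells in every pool.

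The largest ratio belonged to Ifit3b, at 167 ± 95.6 CPM (SD, n = 9) in C10 and 2.33 CPM elsewhere (median log2 ratio 5.98). Rsad2, which encodes viperin and makes a chain-terminating nucleotide, averaged 285 ± 139 CPM in C10 and 6.38 CPM in other cells (5.52). Ifit1, a sensor of RNA that lacks the host cap, averaged 581 ± 121 CPM against 15.9 CPM (5.21). Behind them came Gm47242 (5.03), Oasl2 (4.99), the Isg15-removing protease Usp18 (4.38), the antiviral GTPase Mx1 (4.14), the DNA-binding protein Ifi204 (4.12), Slfn5 (3.98), Isg15, Ifit1bl1 (3.74), Ddx60 (3.74), the nucleotide kinase Cmpk2 (3.52) and Trim30d (3.46). Of these 15 leading genes, 13 were on the interferon lists, as were 51 of the leading 60.

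**Figure D1:**
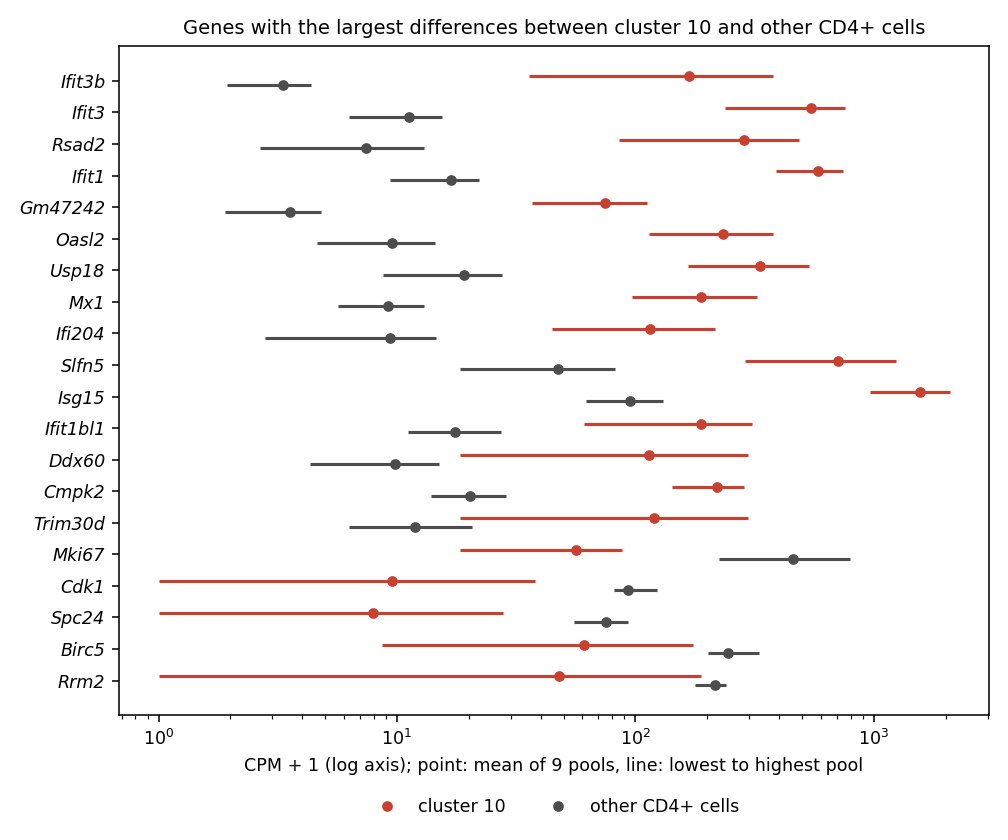
CPM plus 1, on a log axis, of the 15 genes highest and the 5 lowest in C10 (red) relative to the other CD4+ cells (grey), with points for the mean of 9 pools and lines from the lowest to the highest pool. The line of Isg15 runs from 963 to 2077 CPM in C10 and from 60.99 to 129 CPM in the other cells, and of the 15 leading genes only Trim30d overlaps between them.

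The interferon genes were grouped by role. All 6 measured members of the Isg15 conjugation pathway were higher in C10 in every pool, and for 5 of them the pools did not overlap (median log2 ratio 2.96). They were Isg15 itself, the activating enzyme Uba7 (117 ± 37.6 CPM in C10 against 41.0), the conjugating enzyme Ube2l6 (147 ± 68.5 against 14.3), the ligases Herc6 and Trim25, and Usp18. Of 23 antiviral effectors at this level, 20 were higher in every pool and 17 without overlap, with a median log2 ratio of 3.16. Bst2, or tetherin, averaged 944 ± 220 CPM against 153 CPM, and Isg20, an exonuclease, 536 ± 153 against 54.7.

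Ifitm1 and Ifitm2, which block the entry of viruses, went the other way. Both were lower in C10 than in the other CD4 cells in all 9 pools, Ifitm1 with a mean of 81.7 ± 87.9 CPM against 369 CPM. When all cells of a cluster were summed, Ifitm1 stood at 63.3 CPM in C10 and 1070 CPM in C1, a cluster of effector cells. C2 (58.7 CPM) and C11 (35.2 CPM) were lower than C10, so low Ifitm1 was not particular to C10. Ifitm2 stood at 23.9 CPM in C10 and was lower in C2, at 19.3 CPM. Ifitm3 stood at 278 CPM in C10, below C1 at 375 CPM and C12 at 309 CPM and above the other clusters, which ran from 38.6 to 216 CPM. Ifitm1 and Ifitm2 were therefore not among the interferon-stimulated genes that were high in C10.

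Sensors of nucleic acid were higher in every pool for 10 of 11 members (median log2 ratio 2.25). The RNA helicases Ifih1 (302 ± 156 against 62.1 CPM) and Dhx58 (127 ± 64.1 against 16.3 CPM) were among them, whereas Tmem173, which encodes the adaptor Sting, had a median log2 ratio of 0.15 and was higher in 5 pools. Of 14 signalling genes, 5 were higher in all pools, each without overlap. Among them were the transcription factor genes Stat2, Irf7 (667 ± 158 against 76.5 CPM) and Irf9, and the feedback inhibitor Socs1 (304 ± 153 against 110 CPM). The receptor genes Ifnar1 and Ifnar2 had median log2 ratios of 1.02 and 0.81 and were higher in 7 and 6 pools, and Ifngr1 was lower in 8 pools.

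Of 42 other interferon-stimulated genes, 37 were higher in C10 in every pool (median log2 ratio 1.76). Of 14 interferon-gamma-induced GTPases and chemokines, 13 were, with a median of 1.83, among them Igtp (468 ± 119 against 133 CPM) and Irgm1 (290 ± 35.9 against 77.9 CPM). When all cells of a cluster were summed, the GTPases and chemokines took 0.278% of UMIs in C10. C11 (0.224%) and C9 (0.184%) came next, and the remaining clusters held at most 0.110%. MHC class I and its peptide-loading genes differed less, with 12 of 21 higher in every pool and a median log2 ratio of 0.49. Summed by cluster, the MHC class I list was highest in C11, at 2.10% of UMIs, followed by C10 at 2.04%. B2m, the light chain of MHC class I, averaged 3027 ± 188 CPM in C10 and 2317 CPM elsewhere. Over all 3555 genes the median log2 ratio was 0.04. Of the genes for interferons themselves, Ifng had 26 UMIs in C10 and Ifnz had 0.

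Genes of cell division were lower in C10, and naive and memory genes were on balance higher. Mki67, a marker of dividing cells, averaged 55.5 CPM in C10 and 456 CPM in the other CD4 cells (median log2 ratio -2.73), and Cdk1, Spc24, Birc5 and Rrm2 followed with ratios of -2.44, -2.44, -2.33 and -2.31. Of 12 cycling genes, 10 were lower in every pool and 9 without overlap. The other CD4 cells include the cycling clusters C3, C5 and C6. When all cells of a cluster were summed, the cycling list took 0.0563% of UMIs in C10, which ranked 12 of 13 clusters. C1 was lower (0.0530%), and C2 (0.0630%) and C11 (0.0642%) were close, so low cycling was not particular to C10. The effector list of 12 genes held none higher in every pool and 2 lower, Bhlhe40 and Nkg7. Of 10 naive and memory genes, 3 were higher in every pool, among them Il7r, the receptor for interleukin 7, and Slamf6, with median log2 ratios of 0.69 and 0.90, and the median of the list was 0.63. Summed by cluster, the naive and memory list took 0.266% of UMIs in C10, below C9 (0.430%), C4 (0.375%) and C2 (0.272%). Of 16 genes induced through the TCR and calcineurin, none was higher in every pool and 1 was lower.

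A sum of 30 antiviral and Isg15 pathway genes without the Ifitm genes measured how strongly the response was expressed. It took 1.43, 1.12 and 1.18% of C10 UMIs in the saline pools, 0.944, 1.11 and 1.01% at 5 mg/kg and 0.968, 0.715 and 0.941% at 50 mg/kg. The other CD4 cells took 0.167 ± 0.00231% (SD, n = 3), 0.128 ± 0.00117% and 0.110 ± 0.0100%. Both populations thus had their lowest mean at 50 mg/kg, and within pools C10 exceeded the other cells 7.44 ± 1.04, 8.01 ± 0.619 and 7.96 ± 1.17 times. Across clusters C10 stood at 1.05%, followed by C11 at 0.284% and C9 at 0.235%, and the lowest was C3 at 0.0958%.

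At the level of single cells, each cell was thinned to 2000 UMIs so that depth did not set the score, which left out 18 C10 cells and 909 others. C10 cells then held a median of 18 UMIs of the 30 genes (5th to 95th percentile 7 to 44.9, range 3 to 55, 184 cells), and the other CD4 cells held a median of 2 (8980 cells, highest 31). The C10 medians were 21, 18.5 and 16 UMIs at saline, 5 and 50 mg/kg. The cut fell unequally on these groups, and left out 13, 5 and 0 C10 cells and 382, 447 and 80 others. Of the other CD4 cells, 30 (0.334%) reached the C10 median, and they lay in 11 clusters, with 5 in C4 and 4 each in C2 and C8. The low end of C10 overlapped the others. Of the other CD4 cells, 717 (7.98%) held at least 7 UMIs, the 5th percentile of C10. Of C10 cells, 8.15% held no more than 8 UMIs, the 95th percentile of the others.

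**Figure D2:**
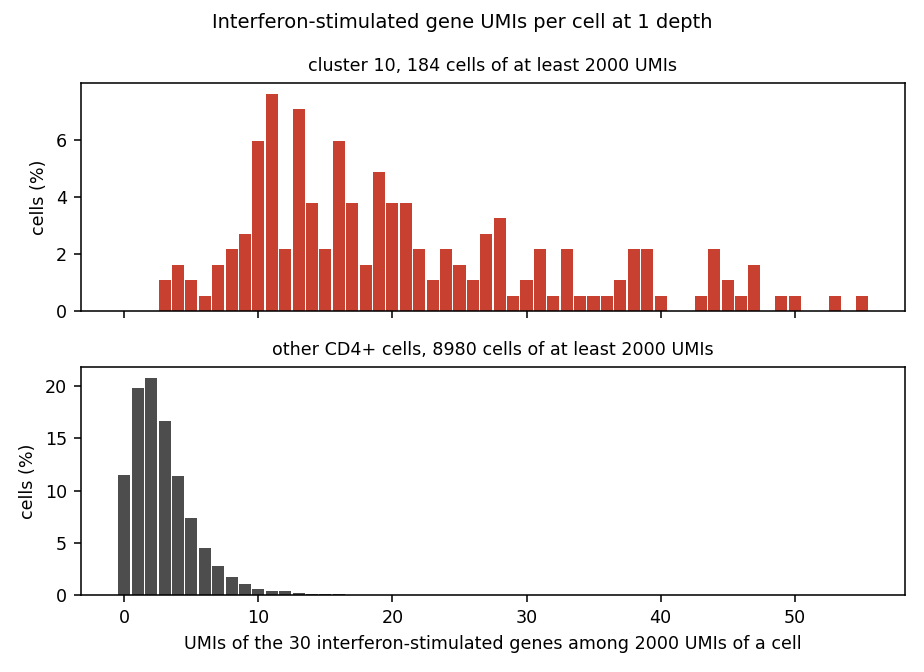
Percentage of cells (bars) at each number of UMIs of the 30 antiviral and Isg15 pathway genes after every cell was thinned to 2000 UMIs, with C10 above and the other CD4+ cells below. C10 cells spread from 3 to 55 around a median of 18, and most other cells lie near their median of 2.

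The size of C10 was compared across doses. C10 made up 1.23, 1.76 and 2.01% of CD4 cells in the saline pools, 1.71, 2.47 and 2.498% at 5 mg/kg and 2.63, 2.28 and 1.59% at 50 mg/kg. The means were 1.67 ± 0.395%, 2.23 ± 0.443% and 2.17 ± 0.527% (SD, n = 3), and the ranges of the groups overlapped. An exact two-sided permutation test of a trend over doses gave p = 0.388 (0.631 adjusted by Benjamini-Hochberg over the 13 clusters). Outside the cycling clusters the means were 2.14, 2.90 and 3.24% of CD4 cells, with an exact permutation p of 0.0738. Among cells of at least 2000 UMIs they were 1.49, 2.42 and 2.22%, with an exact permutation p of 0.277 for the trend and of 0.1 for 5 mg/kg against saline, the smallest that 3 against 3 pools allow, and a difference of 0.92 percentage points in place of 0.56. The cut at 2000 UMIs left out 13, 5 and 0 C10 cells at saline, 5 and 50 mg/kg. With 14 to 29 cells per pool, a modest change in the share was not detectable.

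The TCR sequences showed how far C10 cells belonged to expanded clones, meaning clonotypes found in at least 2 CD4 cells of a pool. Of 168 C10 cells with a clonotype, 27 were expanded. The shares were 1 of 13, 2 of 19 and 2 of 23 C10 cells in saline and 0 of 13, 2 of 19 and 3 of 25 at 5 mg/kg, where the count of 0 allows a share of up to 23.1%. At 50 mg/kg they were 9 of 24, 5 of 19 and 3 of 13. The 50 mg/kg pools thus ran from 23.1 to 37.5% and lay above all 6 other pools, which ran from 0 to 12%.

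The group means of the expanded share in C10 were 8.97 ± 1.44%, 7.51 ± 6.54% and 29.0 ± 7.57% (SD, n = 3). The exact two-sided permutation test of the trend over doses gave p = 0.0274, or 0.0548 after adjustment over 2 tests on TCR, which misses the threshold of 0.05. The other CD4 cells had 26.1, 19.9 and 20.1% expanded cells in saline, 19.97, 18.4 and 16.7% at 5 mg/kg and 27.8, 26.3 and 17.4% at 50 mg/kg, groups that overlapped. Averaged over pools, C10 had 15.1% and the other CD4 cells 21.4% expanded cells, lower in C10 in 6 of 9 pools, with an exact sign-flip permutation p of 0.109. Without the first 50 mg/kg pool the difference was -8.25 percentage points, with an exact permutation p of 0.0469, or 0.0786 adjusted over the 2 tests, and none of the 9 fits without 1 pool passed after adjustment.

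Few of the C10 cells sampled shared a clonotype with each other. The 168 cells carried 166 clonotypes when counted per pool, and only 1 clonotype was held by 2 or more C10 cells, with 3 cells. Pools held 13 to 25 C10 cells with a clonotype, and equal numbers of other CD4 cells were not counted this way. The count is therefore not shown to be particular to C10. Of the clonotypes, 25 were also present in CD4 cells of other clusters of the same pool. These 40 relatives lay in 9 clusters, with 12 in C3 (30% of them), 10 in C1 (25%) and 6 in C0 (15%). Of all expanded CD4 cells outside C10, 19.4% lay in C3, 15.8% in C1 and 18.8% in C0, and the difference in shares was not tested.

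**Figure D3:**
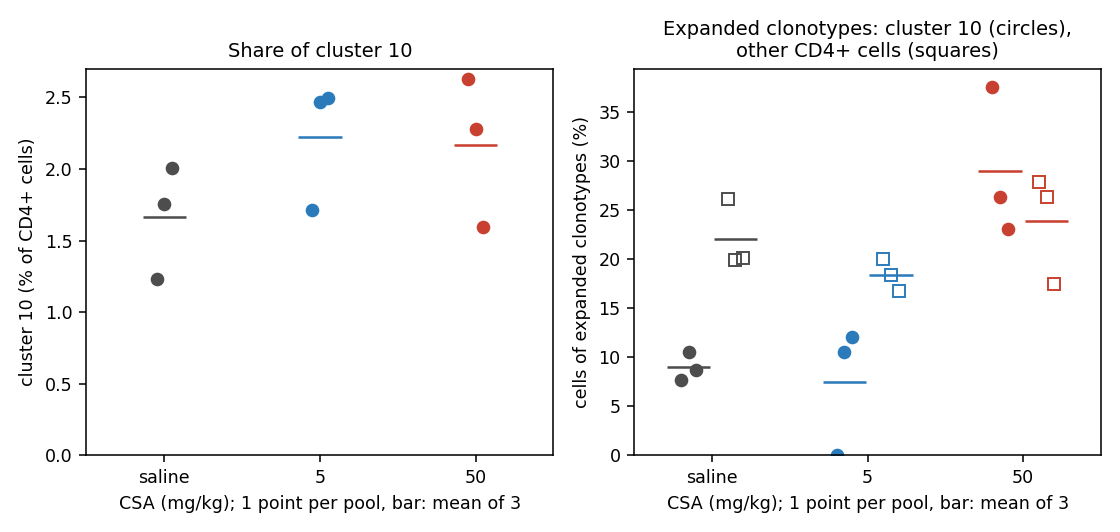
C10 as a percentage of CD4+ cells (left) and the percentage of cells in expanded clonotypes (right, circles for C10 and squares for other CD4+ cells) by treatment, with 1 point per pool and bars at the mean of 3 pools. The C10 shares of the groups overlap on the left, whereas on the right the 50 mg/kg circles, from 23.1 to 37.5%, lie above all other circles.

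Expression within C10 was then compared between treatments. Since the expression of interferon-stimulated genes set which cells were assigned to C10, the comparison covers only the cells that carried this expression in each group. Counts were summed over the C10 cells of each pool and 1728 genes passed the filter on low counts. With edgeR's quasi-likelihood test and a Benjamini-Hochberg adjusted p under 0.05, 172 genes (9.95%) rose and 163 (9.43%) fell at 5 mg/kg against saline, and 310 (17.9%) rose and 315 (18.2%) fell at 50 mg/kg. Between 50 and 5 mg/kg, 125 genes (7.23%) were higher and 163 (9.43%) lower at the high dose.

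Scaling changed this balance. With library sizes in place of TMM factors the median gene in C10 moved by -0.35 at 5 mg/kg and -0.24 at 50 mg/kg on the log2 scale, against -0.09 and -0.01 under TMM. The split became 115 up and 360 down at 5 mg/kg, 170 up and 444 down at 50 mg/kg, and 138 up and 156 down between the doses. The balance at 5 mg/kg also moved toward rises in DESeq2, with 126 up and 47 down, without the filter on low counts, with 213 up and 54 down, and without single pools, with 153 up and 76 down without the second saline pool, 149 and 89 without the third, 156 and 90 without the second 5 mg/kg pool and 153 and 71 without the third. The balance at 50 mg/kg was 429 up and 263 down without the filter.

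The changes against saline also moved with the length of the transcript. Across the 1717 of 1728 tested genes that had a transcript in GENCODE vM21, the log2 change in C10 and the length of the longest transcript had a Spearman correlation of -0.57 at 5 mg/kg and -0.52 at 50 mg/kg, but of -0.08 between the CSA doses. These values describe genes of the same libraries, which are not independent of each other, and each treatment was 1 capture. The genes that rose at 50 mg/kg had a median length of 1597 bases and those that fell 4726 bases. Among 1834 genes in the other CD4 cells the correlations were -0.68 and -0.60. These genes were tested in C10, on the gene lists or called in the test of the difference given below. They are a part of the 10557 genes tested in the other CD4 cells. For them the same order by length was present outside C10.

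Interferon genes followed this order. At 50 mg/kg the 9 that rose in C10 had a median length of 1723 bases and the 38 that fell 3969 bases, and at 5 mg/kg the 7 that rose had 1087 bases and the 16 that fell 4936 bases. Among tested genes of up to 1626 bases the median log2 change of the interferon genes at 50 mg/kg was 0.24, against 0.45 for all genes, and among those of at least 4278 bases it was -1.12, against -0.72. Isg15 and Ifi27l2a, with 756 and 463 bases, are among the short genes, and Slfn5, Parp14 and Helz2, with 5979, 7417 and 10109 bases, among the long ones. Ube2l6 and Oas1a, with 1560 and 1885 bases, are also short, and both fell at 50 mg/kg.

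Each comparison was therefore repeated with the trend of log2 CPM on length taken out of every pool, an alternative chosen after the data were seen. It left 102 rises and 80 falls at 5 mg/kg, 183 rises and 201 falls at 50 mg/kg, and 115 rises and 154 falls between the doses. The part of length in the changes named below was not tested gene by gene, and calls that this alternative ended are given with the genes.

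At 50 mg/kg the interferon-stimulated genes of C10 moved in both directions, more of them downward. Of 112 tested members of the 7 interferon lists, 38 fell and 9 rose in edgeR's quasi-likelihood test after Benjamini-Hochberg adjustment. Of these 47 calls, 24 held when each pool was left out in turn, 42 with library-size scaling and 25 in DESeq2, and 26 with the length trend taken out, when 27 interferon genes fell and 3 rose. At 5 mg/kg 16 fell and 7 rose, of which 7 held without each pool, 20 with library-size scaling, 7 in DESeq2 and 6 with the length trend taken out. Both comparisons used the same saline pools. Of all 1728 genes tested, 18.2% fell and 17.9% rose at 50 mg/kg, and 9.43% fell and 9.95% rose at 5 mg/kg. These shares are the background for the list counts here and below. At 5 mg/kg the 23 calls among 112 interferon genes stood near the 335 calls among all 1728 genes.

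Among 22 antiviral effectors tested, 10 fell and none rose at 50 mg/kg, with a median log2 change of -0.55. Slfn5, a member of the Schlafen family, measured 1233, 1210 and 935 CPM in the saline pools of C10, 423, 793 and 663 CPM at 5 mg/kg and 381, 288 and 420 CPM at 50 mg/kg. Its saline pools lay above all others, and it fell by 0.64 at 5 mg/kg (SE 0.19, adjusted p = 0.015) and by 1.53 at 50 mg/kg (SE 0.20, adjusted p = 1.4e-06) on the log2 scale in edgeR's test. With the length trend taken out the fall of Slfn5 at 50 mg/kg held (-0.94, adjusted p = 0.0015) and that at 5 mg/kg did not (-0.16, adjusted p = 0.67). Oas1a, which makes the second messenger that activates RNase L, measured 295, 259 and 189 CPM in saline, 247, 271 and 214 CPM at 5 mg/kg and 53.4, 61.1 and 60.02 CPM at 50 mg/kg. Oas1a had a log2 change of 0.13 at 5 mg/kg that missed the threshold (adjusted p = 0.76) and fell by 1.93 at 50 mg/kg (SE 0.35, edgeR adjusted p = 8.9e-05), or by 2.13 with the length trend taken out.

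Rsad2 measured 483, 284 and 426 CPM in saline, 194, 351 and 381 CPM at 5 mg/kg and 259, 105 and 84.0 CPM at 50 mg/kg. The 50 mg/kg pools of Rsad2 lay below those of saline, and its log2 change was -1.18 (SE 0.34, edgeR adjusted p = 0.0079), a call lost without the third saline pool (-1.03, adjusted p = 0.06), the second 50 mg/kg pool (-0.88, adjusted p = 0.067) or the third (-0.85, adjusted p = 0.054), or with the length trend taken out (-0.87, adjusted p = 0.071). Ifit3 had a log2 change of -0.56 at 50 mg/kg (SE 0.24) that missed the threshold (edgeR adjusted p = 0.067) and passed it with the length trend taken out (-0.79, adjusted p = 0.018), and Ifit1, with 429, 543 and 615 CPM in saline and 679, 506 and 744 CPM at 50 mg/kg, did not pass either. Eif2ak2, the kinase that halts translation on double-stranded RNA, fell by 1.11, Oas3 by 1.27, Oasl2 by 0.91, Slfn8 by 1.14 and Samhd1, a nucleotide hydrolase, by 0.53. The call of Samhd1 ended with the length trend taken out, and those of Oasl2 and Samhd1 did not hold when each pool was left out in turn. With the length trend taken out the antiviral list held 10 falls at 50 mg/kg. At 5 mg/kg it held 6 falls and 2 rises, with a median of -0.38, and 2 falls with the length trend taken out.

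Ifitm1 and Ifitm3 of C10 were lowest at 50 mg/kg. Ifitm1 measured 161, 247 and 130 CPM in saline, 123, 40.1 and 33.5 CPM at 5 mg/kg, and had 0 UMIs in all 3 pools at 50 mg/kg. Its log2 change at 5 mg/kg was -1.61 (SE 0.55, edgeR adjusted p = 0.038), a call lost in 5 of the 9 fits that left out 1 pool, namely those without each saline pool and without 5 mg/kg pool 2 or 3 (-2.08 to -1.12 over the 9 fits, adjusted p up to 0.33). Its fitted change at 50 mg/kg (edgeR adjusted p = 1.9e-05) depends on the prior count and is no bound. Ifitm3 measured 349, 210 and 248 CPM in saline, 845, 361 and 529 CPM at 5 mg/kg and 0, 61.1 and 144 CPM at 50 mg/kg. Ifitm3 rose by 1.23 at 5 mg/kg (SE 0.37, adjusted p = 0.019) and fell by 1.998 at 50 mg/kg (SE 0.53, adjusted p = 0.0045) in edgeR's test. The rise of Ifitm3 at 5 mg/kg was lost with library-size scaling and with the length trend taken out.

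**Figure D4:**
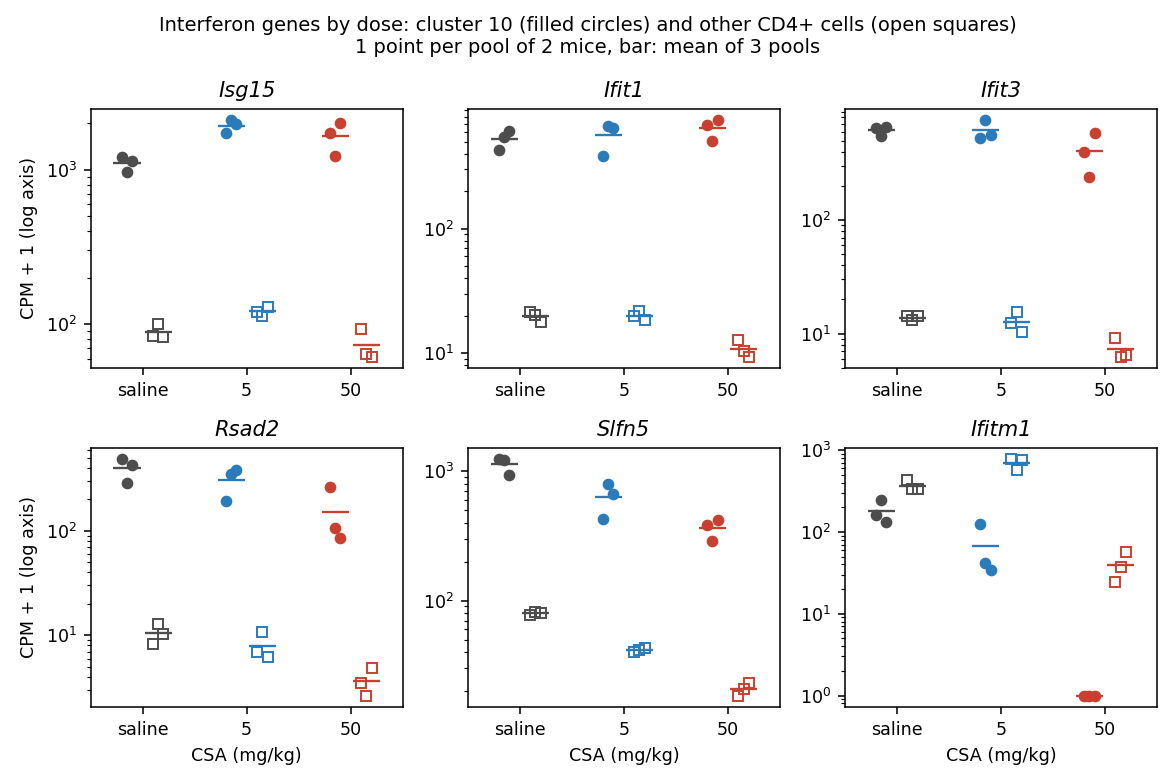
CPM plus 1, on log axes, of 6 interferon-stimulated genes in saline and at 5 and 50 mg/kg CSA, with C10 as filled circles, other CD4+ cells as open squares, 1 point per pool and bars at the mean of 3 pools. In C10 every CSA pool of Isg15 lies above saline and every CSA pool of Slfn5 below it, and Ifitm1 is at 0 in the 50 mg/kg pools of C10.

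Of 11 signalling genes tested, 3 fell at 50 mg/kg and none rose (median log2 change -0.54). Stat2, a part of the complex that binds response elements, fell by 1.56 at 50 mg/kg (SE 0.40, edgeR adjusted p = 0.0032). This call of Stat2 did not hold when each pool was left out in turn. Jak2, a kinase of the interferon-gamma and other cytokine receptors, measured 241, 235 and 189 CPM in saline and 68.6, 26.2 and 12.004 CPM at 50 mg/kg, a fall of 2.34 (SE 0.44, edgeR adjusted p = 0.00018). Irf7 had a log2 change of 0.31 (SE 0.20) at 50 mg/kg, with an edgeR adjusted p of 0.24.

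Socs1 behaved differently at the lower dose. It measured 188, 346 and 154 CPM in saline, 352, 502 and 582 CPM at 5 mg/kg and 183, 201 and 228 CPM at 50 mg/kg. All 5 mg/kg pools of Socs1 were above all other C10 pools, with a rise of 1.2 over saline (SE 0.28, edgeR adjusted p = 0.0024), and at 50 mg/kg it was 1.34 lower than at 5 mg/kg (log2 change -1.34, SE 0.25, adjusted p = 0.00034). With the length trend taken out the rise was 1.29 (edgeR adjusted p = 0.0018). The log2 change of Socs1 at 50 mg/kg against saline was -0.14 (adjusted p = 0.77).

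Of the 6 Isg15 pathway genes, 1 rose and 2 fell at 50 mg/kg (median log2 change -0.72). Isg15 rose by 0.95 at 5 mg/kg (SE 0.16, adjusted p = 4.9e-05) and by 0.68 at 50 mg/kg (SE 0.16, adjusted p = 0.0016) in edgeR's test. Neither rise of Isg15 was called with the length trend taken out, when the log2 changes were 0.37 (adjusted p = 0.15) and 0.15 (adjusted p = 0.55). Ube2l6, which carries Isg15 to its ligases, measured 188, 210 and 201 CPM in saline, 106, 221 and 194 CPM at 5 mg/kg and 60.99, 78.6 and 60.02 CPM at 50 mg/kg. The 50 mg/kg pools of Ube2l6 lay below all others, and the fall of 1.49 (SE 0.36) had an edgeR adjusted p of 0.002, and was 1.75 with the length trend taken out. Herc6, the main mouse ligase for Isg15, fell by 1.21 at 50 mg/kg, a call that ended with the length trend taken out (-0.80, adjusted p = 0.12). The call of Herc6 also did not hold when each pool was left out in turn. Usp18 had a log2 change of -0.61 (adjusted p = 0.083).

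Sensors of nucleic acid fell at 50 mg/kg for 7 of 11 members, and none rose (median log2 change -0.76). Ifih1, which encodes the RNA sensor Mda5, measured 563, 457 and 461 CPM in saline, 194, 301 and 261 CPM at 5 mg/kg and 175, 105 and 204 CPM at 50 mg/kg. Ifih1 fell by 0.77 at 5 mg/kg (SE 0.25, adjusted p = 0.03) and by 1.51 at 50 mg/kg (SE 0.27, adjusted p = 8.5e-05) in edgeR's test, of which only the second held with the length trend taken out (-0.99, adjusted p = 0.0098). The other 6 were Ddx58 (-0.79), Dhx58 (-1.29), Tmem173 (-1.15), Ifi204 (-1.37), Ifi209 (-0.61) and Ifi213 (-0.76), and Ddx58 and Ifi209 were not called with the length trend taken out. Of the 7 falls at 50 mg/kg, only that of Ifih1 held when each pool was left out in turn. At 5 mg/kg Ifih1 was the only sensor called.

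Other interferon-stimulated genes split. Of 34 tested, 5 rose and 9 fell at 50 mg/kg, with a median of -0.05. Ifi27l2a, which encodes a small interferon-induced membrane protein, measured 2493, 2631 and 2117 CPM in saline, 9880, 8598 and 6459 CPM at 5 mg/kg and 4834, 6049 and 5642 CPM at 50 mg/kg. It rose by 1.89 (SE 0.13, adjusted p = 1.8e-11) and 1.29 (SE 0.13, adjusted p = 2.4e-08) in edgeR's test, and its 3 groups did not overlap. With the length trend taken out both rises of Ifi27l2a were called, at 1.06 and 0.60. Ly6c2, a surface protein of effector and memory T cells, measured 214 to 343 CPM in saline, 214 to 793 CPM at 5 mg/kg and 1657 to 2600 CPM at 50 mg/kg, a rise of 3.03 (SE 0.28, edgeR adjusted p = 4.3e-09), and of 3.01 with the length trend taken out.

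Slfn2, Epsti1 and Ms4a4c also rose, by 0.50, 0.53 and 0.94, and these calls were lost with library-size scaling and with the length trend taken out. The 9 that fell included Helz2, a transcriptional coactivator (-2.39), Trim30d (-2.003), Parp14 (-1.69), Pml, the scaffold of nuclear bodies (-1.47), Lgals3bp (-0.90) and Trim30a (-0.79). Of 9 interferon-gamma-induced GTPases and chemokines tested, 4 fell and none rose, with a median of -0.55, and Gbp9 fell by 1.09, a call that ended with the length trend taken out (-0.63, adjusted p = 0.10). Of 19 MHC class I genes, 3 rose and 3 fell (median -0.03). This was close to the shares of all tested genes, of which 17.9% rose and 18.2% fell. The proteasome activator Psme1 rose by 0.70 at 50 mg/kg and 0.71 at 5 mg/kg. With the length trend taken out Psme1 was the only MHC class I gene called at 50 mg/kg, and B2m turned from 0.27 to -0.21 (adjusted p = 0.12).

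**Figure D5:**
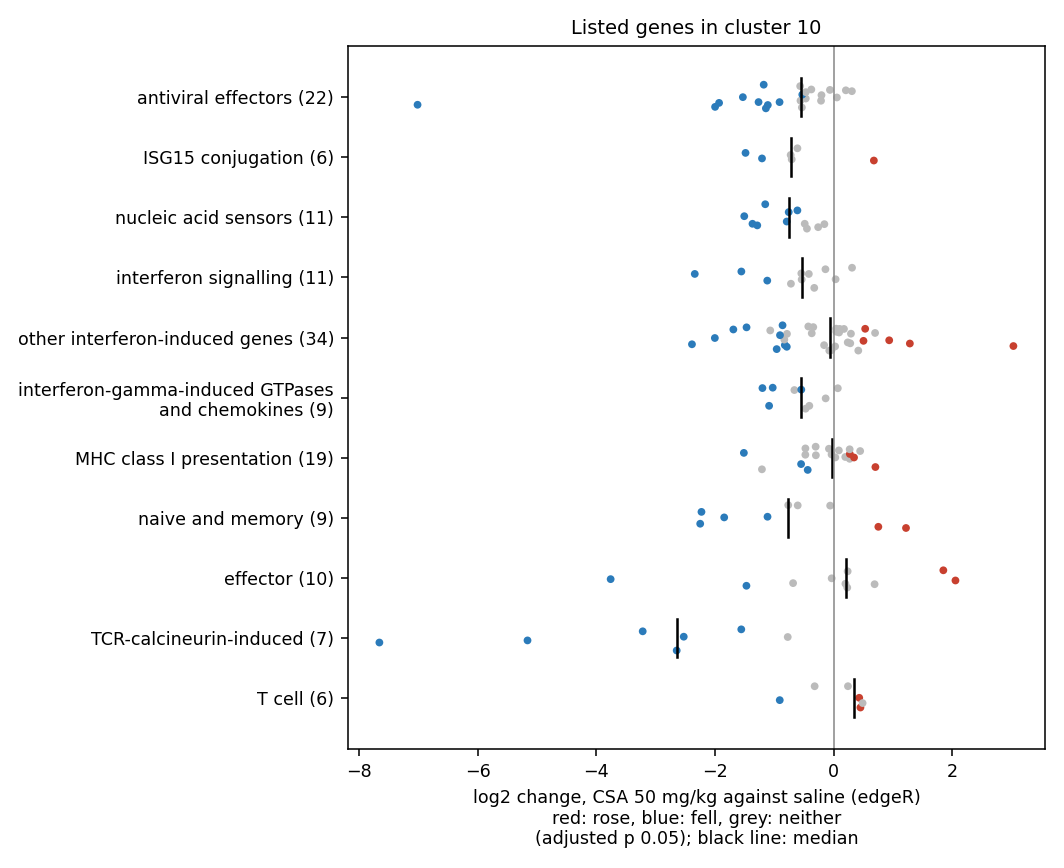
Log2 change at 50 mg/kg against saline in C10, with 1 point per tested gene of each list (number tested in brackets), red for genes that rose, blue for genes that fell and grey for neither in edgeR's quasi-likelihood test, and black lines at the medians. The antiviral, sensor and signalling lists hold falls and no rises, with medians of -0.55, -0.76 and -0.54, and the leftmost points are genes with 0 UMIs at 50 mg/kg, whose fitted value depends on the prior count.

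Genes outside the interferon response also changed in C10 with dose. Of 7 tested genes induced through the TCR and calcineurin, 6 fell at 50 mg/kg and none rose, with a median of -2.65, and 6 fell also with the length trend taken out. Tox, a transcription factor of chronically stimulated T cells, measured 241, 408 and 177 CPM in saline, 88.1, 70.2 and 107 CPM at 5 mg/kg and 7.62, 8.73 and 0 CPM at 50 mg/kg. The 3 groups of Tox did not overlap, and it fell by 1.49 (SE 0.37, adjusted p = 0.0047) and 5.16 (SE 0.61, adjusted p = 2.4e-07) in edgeR's test. The inhibitory receptors Pdcd1, Lag3 and Tigit fell by 3.22, 2.65 and 2.53 at 50 mg/kg, and Nfatc1 by 1.56.

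Naive and memory genes moved both ways. At 50 mg/kg Tcf7, a factor of stem-like T cells, fell by 2.23, Bcl2 by 2.25, Slamf6 by 1.84 and Il7r by 1.11, while Klf2, a factor of quiescent recirculating T cells, rose by 0.75 and Foxp1 by 1.22. Of 10 effector genes, Cxcr6 and Ccl5 rose and Gzma and Il18r1 fell. Ccl5, a chemokine of effector and memory T cells, measured 858 to 1247 CPM in saline and 3149 to 6086 CPM at 50 mg/kg, and rose by 2.05 (SE 0.25, edgeR adjusted p = 4.2e-07). Ighm, a B cell transcript, rose in C10 by 0.98 at 50 mg/kg (edgeR adjusted p = 0.013), and its part in other changes was not tested.

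The largest changes at 50 mg/kg among genes with groups apart were the rises of Anxa1 (3.94), Ly6c2, Ctla2a (2.81), Crip1 (2.18) and Ccl5 and, beside Ifitm1 and Tox, the falls of Hist1h2bm (-5.72), the CD30 ligand Tnfsf8 (-5.47) and Hist1h3e (-5.21). Anxa1, which encodes the phospholipid-binding annexin A1, measured 0, 24.7 and 23.7 CPM in saline, 52.8, 20.1 and 13.4 CPM at 5 mg/kg and 381, 227 and 288 CPM at 50 mg/kg. These genes moved the same way in the other CD4 cells. There the means from saline to 50 mg/kg went from 72.8 to 316 CPM for Anxa1 and from 191 to 1790 CPM for Ly6c2. Those of Tox went from 174 to 12.4 CPM and those of Tnfsf8 from 169 to 18.0 CPM. None of the genes named for 50 mg/kg in this paragraph was called at that dose in the test of the difference given below. At 5 mg/kg the largest rises were those of Romo1 (2.01), Rps28 (1.93), Ifi27l2a, Rps27 (1.88) and Slc50a1 (1.86), and the largest falls those of the acetyltransferase gene Crebbp (-2.93), Hivep2 (-2.29), Gm4070 (-2.18), Nup210 (-2.13) and Cdk17 (-2.04). The calls of Romo1, Slc50a1 and Gm4070 ended with the length trend taken out. The mean CPM of the genes named for 5 mg/kg also moved the same way in the other CD4 cells.

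Between 50 and 5 mg/kg, 16 of the 112 interferon genes were lower at the high dose and 3 higher, and 10 of these 19 calls held without each pool and 16 with the length trend taken out. Over all tested genes, 9.43% were lower and 7.23% higher. Ifit3 was lower by a log2 change of -0.70 (SE 0.22, edgeR adjusted p = 0.03), a call lost without the second 5 mg/kg pool or the first or second 50 mg/kg pool. Isg20 (-0.93), Usp18 (-0.83), Oas1a (-2.06), Slfn5 (-0.89) and Rsad2 (-1.08) were also lower. Of the sensors none was called. The genes with the largest changes and groups apart were Anxa1 (3.61), Cldnd1 (2.85), Ly6c2 (2.64), Ccl5 (2.62) and Ctla2a (2.54) upward and Ifitm1, Sostdc1, Tnfsf8 (-5.01), Hist1h2bm (-4.93) and Gzma (-4.65) downward. Sostdc1, like Ifitm1, had 0 UMIs in C10 at 50 mg/kg, so that its fitted change is no bound. The mean CPM of the genes with the largest changes moved the same way between the doses in the other CD4 cells.

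The other CD4 cells of the same pools were fitted in the same way to see where the change of C10 differed from theirs. With far more counts, 2760 of 10557 genes (26.1%) rose and 2696 (25.5%) fell at 5 mg/kg in edgeR's test, and 3655 (34.6%) rose and 3790 (35.9%) fell at 50 mg/kg. When their counts were thinned to the UMIs of C10 in each pool, 356 and 618 of 1757 genes were called. With library-size scaling the splits were 918 up and 5678 down, and 1599 up and 6236 down.

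A direct test of the difference in change, in 1 model over both populations with the pool as a block, called few genes. Of 9829 genes, 4 changed more upward in C10 (0.0407%) and 11 more downward (0.112%) at 5 mg/kg, and 8 (0.0814%) and 31 (0.315%) did so at 50 mg/kg. With the length trend taken out, all 15 and 35 of the 39 of these calls held. Most interferon genes were therefore not shown to change differently in C10. For Slfn5 the difference was 0.32 (SE 0.24) at 50 mg/kg, for Rsad2 0.45 (SE 0.46) and for Ifih1 0.78 (SE 0.31), with edgeR adjusted p-values of 0.95, 0.95 and 0.53. In other CD4 cells 17 of 26 antiviral effectors fell and 2 rose at 50 mg/kg (median -0.59), as 5 of 6 Isg15 pathway genes and 14 of 18 GTPases and chemokines fell.

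Isg15 was among the few genes called. In other CD4 cells it measured 83.6, 99.1 and 81.9 CPM in saline, 118, 113 and 129 CPM at 5 mg/kg and 92.4, 63.1 and 60.99 CPM at 50 mg/kg, and its log2 change at 50 mg/kg was 0.14 (edgeR adjusted p = 0.29) with a direction that turned to -0.30 with library-size scaling and to -0.62 with the length trend taken out (adjusted p = 0.00016). The change in C10 was larger by 0.81 (SE 0.19, edgeR adjusted p = 0.0066), or by 0.88 with the length trend taken out. This call was lost without the second saline pool (0.70, adjusted p = 0.25), without the third 50 mg/kg pool (0.60, adjusted p = 0.36) and in DESeq2 (adjusted p = 0.063). Ifit1 fell by 0.50 in other CD4 cells and its difference was 1.07 (SE 0.28, edgeR adjusted p = 0.039), a call lost in 5 of the 9 fits that left out 1 pool. The expression of interferon-stimulated genes set which cells were assigned to C10 in each group, and the other CD4 cells are the rest. The differences of such genes, Isg15 and Ifit1 among them, cover cells chosen for this expression. Their p-values are therefore not evidence of a different response to CSA.

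Ifi27l2a rose more in C10 than in other CD4 cells at 5 mg/kg, with a difference of 0.83 (SE 0.14, edgeR adjusted p = 4.8e-05). Ifitm1 went in opposite directions at this dose. It rose in other CD4 cells from 427, 336 and 329 CPM in saline to 770, 577 and 763 CPM at 5 mg/kg, by 1.31 on the log2 scale, while it fell in C10, and the difference was -2.75 (SE 0.43, edgeR adjusted p = 1e-06). At 50 mg/kg Ifitm1 was at 23.7, 35.7 and 56.1 CPM in the other CD4 cells and at 0 in C10. The other CD4 cells are a mix of clusters, and summed by cluster Ifitm1 was highest in C1 (1070 CPM), followed by C12 (332 CPM). The part of this mix in the changes of Ifitm1 was not tested.

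Cxcr6, a chemokine receptor of tissue-homing effector T cells, measured 26.8, 124 and 94.6 CPM in saline and 404, 288 and 240 CPM at 50 mg/kg in C10. It had 347, 303 and 357 CPM and 263, 254 and 236 CPM in the same groups of other CD4 cells. The difference in its change was 2.10 (SE 0.34, edgeR adjusted p = 1.8e-06), and that of Ahnak, a large scaffold protein, was 1.28 (SE 0.21, edgeR adjusted p = 4.1e-06). Cycling genes went further apart, with Stmn1 at -3.39, Birc5 at -3.76, Pclaf at -4.16 and Rrm2 at -3.69. When the other CD4 cells outside the cycling clusters were used, these 4 values were -1.44, -1.38, -1.89 and -1.43 and no longer passed, whereas Isg15 (1.08), Ifit1 (1.13) and Cxcr6 still did.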

How the data were processed

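Droplet captures of splenic T cells were sequenced for mRNA, antibody tags and TCR. Per the labels, the authors sorted and captured 3 hashtagged pools per treatment together, and the submitters' processing notes name Cell Ranger, Seurat 3.0.0 and the mouse build mm10. The deposited tables hold UMI counts per gene and cell, not normalized, antibody tag counts, and the authors' cluster, hashtag and clonotype of each cell. The deposited fraction of mitochondrial UMIs per cell was used as the authors gave it and is printed as a percent. The authors' clusters were taken as deposited, and no cell was reclustered or removed other than TEa cells.

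UMI counts were summed over C10 cells, and over the other CD4 cells, of each pool, and CPM were taken over the sum of the pool. Each sum held at least 10 cells. Group comparisons used edgeR 4.0.16 in R 4.3.3 (glmQLFit and glmQLFTest, filterByExpr, TMM, Benjamini-Hochberg over all genes tested, threshold 0.05) over the 9 pools. The difference in change between C10 and other CD4 cells was an interaction term with the pool as a block. Log2 changes follow TMM scaling, whereas printed CPM follow library sizes. C10 against other cells was described by the median over pools of the log2 ratio of CPM with 1 UMI added. Shares were compared by exact permutation tests (Python 3.11.15, numpy 2.4.6, pandas 2.3.3, scipy 1.17.1). The smallest two-sided p these allow is 0.00119 for the trend, 0.1 for 3 against 3 pools and 0.00391 for the sign-flip test. Counting intervals and limits cover counting error only. The fits were tested on simulated data.

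The members and gene lists were chosen with earlier results of these data known. Genes named are the given markers, leading members of the lists, the 15 largest and 5 lowest ratios of C10 to other cells among genes of at least 50 CPM and 1 direction in every pool, the 5 largest rises and falls of each dose comparison among called genes of at least 50 CPM whose groups did not overlap, and the 5 largest calls each way in the test of the difference, without TCR and immunoglobulin segments in the ratios and dose comparisons. Anxa1, Ahnak and other genes outside the lists came from these rules. Alternatives were DESeq2 1.42.0, scaling by library size, all genes without a count filter, a replicate block, leaving out each pool, other cells without the cycling clusters 3, 5 and 6, cells of at least 2000 UMIs, TEa cells included and clonotypes counted over the group. Chosen after the data were seen, a further fit entered as an offset each pool's lowess trend of log2 CPM, relative to the mean of the gene, on the log2 length of the longest GENCODE vM21 transcript of the gene symbol, read over the genes tested (over those tested in C10 for the difference). Promoters came from RefSeq (GRCm38.p6). No column held values of a sample outside the series. A few genes of the lists are counted but not reported by name here.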

Additional observations from a re-analysis of the deposited data

Results flagged for a closer look

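The values here are differences between the change of C10 and that of the other CD4 cells, on the log2 scale, that passed edgeR's quasi-likelihood test after Benjamini-Hochberg adjustment. At 5 mg/kg, interferon-stimulated genes were Ifi27l2a (0.83), which rose more in C10, and Ifitm1 (-2.75), with log2 changes of opposite sign in C10 and elsewhere. The transcript regulator Arid5a differed by 1.71 and the cell division gene Birc5 by -2.17, calls lost in 3 and 5 of the 9 fits without 1 pool. Lgals3 (-1.31), Anxa2 (-1.12), Tagln2 (-0.88), Lgals1 (-0.74), Crip1 (-0.70) and S100a6 (-0.64) also changed more downward in C10. TCR segment genes were Trbv1 (1.31), Trbv20 (-2.61), Trbv31 (-2.05), Trav8d-2 (-10.83) and Trav17 (10.97), in pools that held 13 to 25 C10 cells with a clonotype. Against other CD4 cells outside the cycling clusters, only 3 of all 15 calls at 5 mg/kg held, 2 upward and 1 downward.

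At 50 mg/kg, Isg15 (0.81) and Ifit1 (1.07) changed more upward in C10, as did Cxcr6 (2.10) and Ahnak (1.28), of which the last 2 held without each pool. Cells were assigned to C10 by interferon-stimulated expression, so the calls of Isg15 and Ifit1 are not evidence of a different response. The cell cycle factor E2f2 (4.001) ran from 3.31 to 10.55 when 1 pool was left out, the highest without the first saline pool, and its call was lost in 4 of these 9 fits, without saline pool 2 or 3 or 50 mg/kg pool 1 or 3. Cell cycle genes changed more downward in C10, namely Stmn1 (-3.39), Birc5 (-3.76), Pclaf (-4.16), Rrm2 (-3.69) and Ccnb1 (-9.97). The TCR segments were Trbv17 (-10.82), Trbv31 (-2.12), Trav8d-2 (-5.03), Trav14d-3-dv8 (-9.87) and Trbv29 (-10.03), whose call was lost in all 9 fits without 1 pool. The mitochondrial ribosomal gene Mrps11 (9.96) and the membrane protease Adam8 (10.36) changed more upward. The 39 calls also held others, of which Ptma (-1.25), Ube2c (-2.90), Cks1b (-3.82), Hmgn2 (-1.64) and Vim (0.79) are named after their values were seen. Against other CD4 cells outside the cycling clusters, only 6 of the 39 calls held, 4 upward and 2 downward. Values near 10 in size come from genes with 0 UMIs in a group of C10 pools. They depend on the prior count and are no bound. Adam8 had 0 UMIs in the saline pools of C10 and measured 53.4, 17.5 and 156 CPM at 50 mg/kg.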

How the results depend on the processing

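With DESeq2 the calls within C10 were 173 at 5 mg/kg, 378 at 50 mg/kg and 169 between the doses, and 18 genes differed from other CD4 cells at 50 mg/kg. Without the filter on low counts 6 genes differed at 5 mg/kg, and against other CD4 cells outside the cycling clusters 3 and 6 differed at 5 and 50 mg/kg. Chosen after seeing the data, thinning the other CD4 cells to the UMIs of C10 left 356 and 618 calls. Likewise chosen afterwards, taking out the trend on transcript length left 182 and 384 calls within C10 and 3362 in other CD4 cells at 5 mg/kg, and turned B2m in C10 to -0.21 and Isg15 in other CD4 cells to -0.62 at 50 mg/kg. Leaving out each pool gave 224 to 346, 499 to 731 and 218 to 299 calls within C10, and 6 to 16 and 15 to 37 for the difference at 5 and 50 mg/kg, with 15 without the first 50 mg/kg pool, 17 without the second saline pool and 24 without 50 mg/kg pool 3. At 5 mg/kg the difference had 6 calls without the second 5 mg/kg pool, 7 without saline pool 1 or 3 and 8 without saline pool 2. Isg15 in other CD4 cells at 50 mg/kg turned to -0.30 with library-size scaling and to -0.072 without the first 50 mg/kg pool (range -0.072 to 0.25). The rise of the expanded share from saline to 50 mg/kg was 19.99 points with clonotypes counted over the group (exact permutation trend p 0.0429 adjusted) and 15.7 to 22.9 points without each pool (adjusted 0.0143 to 0.141, the lowest without the first 5 mg/kg pool). The replicate block gave 344, 627 and 297 calls within C10. Same-numbered pools correlated from -0.030 to 0.104 in their deviations and share only a number, and Gbp7 and Ifi209 lost their calls under the block. Of 2212 alternative values of named genes, 1728 kept direction and side of the threshold, 480 missed it and 4 reversed. The causes of these changes were not tested. Depth limits C10 genes of low counts, and the sum of 14 to 29 cells cannot show small changes.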
